A study of Mus musculus with 4 samples.

Results

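Isolated Sp5 peaks are the intervals of the deposited list that stand far from every other listed interval. They were chosen by spacing alone: a peak on chromosomes 1 to 19 was a member when the midpoint of the nearest other peak on the same chromosome lay more than 500 kb away. The rule selected 389 of 9265 autosomal peaks (4.20%, 95% Wilson interval 3.81 to 4.63%), out of 9428 peaks in the whole list, and the remaining 8876 autosomal peaks served for comparison. Because the rule used the distances, every count of members and every gap given here describes the choice and was not tested, whereas peak width did not enter the rule.

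The list came from chromatin immunoprecipitation with sequencing of Flag-tagged Sp5 in mouse A2Lox.cre embryonic stem cells, a line in which a chosen cDNA is switched on by doxycycline. The cells formed embryoid bodies, doxycycline was present for 24 h from day 2, and chromatin was taken on day 3. There were 2 libraries precipitated with the M2 antibody against Flag and 2 input libraries without antibody, and the treatment label of all 4 gives doxycycline to induce Flag-Sp5. A control precipitation from cells lacking the tagged protein was not among them, so peaks of Flag-Sp5 and background of the antibody cannot be told apart. The list is 1 set of coordinates for the whole series without score, height or read count, so no value has an error between libraries, the depth behind a peak is unknown, and the intervals given here cover counting of peaks only.

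Sp5 belongs to the SP/KLF zinc-finger transcription factors, which recognise GC-rich boxes and related CACCC elements, often in promoters. Its gene is switched on directly by Wnt/β-catenin signalling, and in the early embryo it is expressed in the primitive streak, where Wnt signals specify mesoderm. Mammalian chromosomes alternate between gene-rich, GC-rich stretches and long gene-poor stretches, and regulatory elements in the latter can lie far from the promoter they act on. Positions below are 1-based on mm9, the build in the submitters' processing notes. No annotation or sequence of that build was used here, so whether a named position lies in a gene, an exon, an intron or between genes was not analysed here, and no sequence is printed.

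By the rule, the isolated peaks stood more than 500 kb from every listed neighbour. Their distance to the nearest other midpoint had a median of 683 kb, with quartiles of 581 and 902 kb, and their farther gap had a median of 1.17 Mb (quartiles 0.879 and 1.71 Mb). For the other autosomal peaks the nearest midpoint was at a median of 41.4 kb (quartiles 9.93 and 119 kb) and the farther one at 212 kb (quartiles 89.6 and 445 kb). More than 1 Mb separated 77 members (19.8%) from any other peak, and more than 2 Mb separated 4. At the boundary of the rule, the 3 members with the shortest distance were chr12:20819687-20819856 at 501.8 kb, chr15:71896884-71897272 at 502.1 kb and chr5:50010317-50010457 at 503.8 kb. Just outside it lay chr8:3587462-3587677 at 499.9 kb and a pair on chromosome 3, chr3:153338806-153339108 and chr3:153836795-153836935, 497.9 kb from each other. The boundary therefore cuts through a continuous range of distances.

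The most isolated autosomal peak was chr18:88670939-88671142, 204 bp wide and 3.08 Mb from its neighbour. It was the last listed peak of chromosome 18 and so had a neighbour on its left side only, and 8 members in all stood at an end of their chromosome's list. The most isolated peak with neighbours on both sides was chr1:69732314-69732849, a 536 bp interval with 3.05 Mb free of peaks to the left and 2.53 Mb to the right. On chromosome 5, chr5:12898934-12899090 measured 157 bp and had gaps of 2.79 and 2.24 Mb. A 194 bp peak at chr7:10910930-10911123 had 3.84 Mb to the left and 2.10 Mb to the right. Narrow and very wide intervals both occurred among these 4 peaks.

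The next peaks in order of distance mostly had gaps of similar size on both sides. The peak chr8:51992536-51992746 had 1.99 Mb on the left and 2.07 Mb on the right. Around chr4:78435166-78435350 the gaps were 1.79 and 1.96 Mb, and around chr15:49355614-49355808 they were 1.95 and 1.67 Mb. The peak chr10:15753012-15753184 had 2.02 and 1.67 Mb, and chr5:84495587-84495907, 321 bp wide, had 2.32 and 1.83 Mb. An exception was chr12:64651141-64651413, with 4.54 Mb to the left and 1.93 Mb to the right. Of these 10 most isolated peaks, 2 were wider than 300 bp, compared with 10.03% of all isolated and 14.0% of other autosomal peaks. The median width of the 10 was 199.5 bp, against 194 bp for all isolated peaks. With so few peaks, the shares were not compared further.

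Isolated peaks ranged from nearly centred between their neighbours to strongly off centre. Among the 381 members with a neighbour on each side, the farther gap was a median 1.51 times the nearer one (quartiles 1.23 and 2.08). It was under 1.5 times the nearer gap for 187 members (49.1%) and exceeded 3 times the nearer gap for 37 (9.71%). The rule keeps the nearer gap above 500 kb, which limits this ratio, and the ratio is not given for the other autosomal peaks. The nearer neighbour was on the left for 199 members and on the right for 182. The most uneven member, chr7:46432573-46432748, had 7.12 Mb to the left and 549 kb to the right, a ratio of 13.0. It was followed by chr1:51971855-51972051, with 5.22 Mb and 716 kb, and chr1:145114089-145114266, with 5.08 Mb and 721 kb. These 3 were named after their values were seen, and each marks one border of a stretch of over 5 Mb in which no peak was listed.

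**Figure D1:**
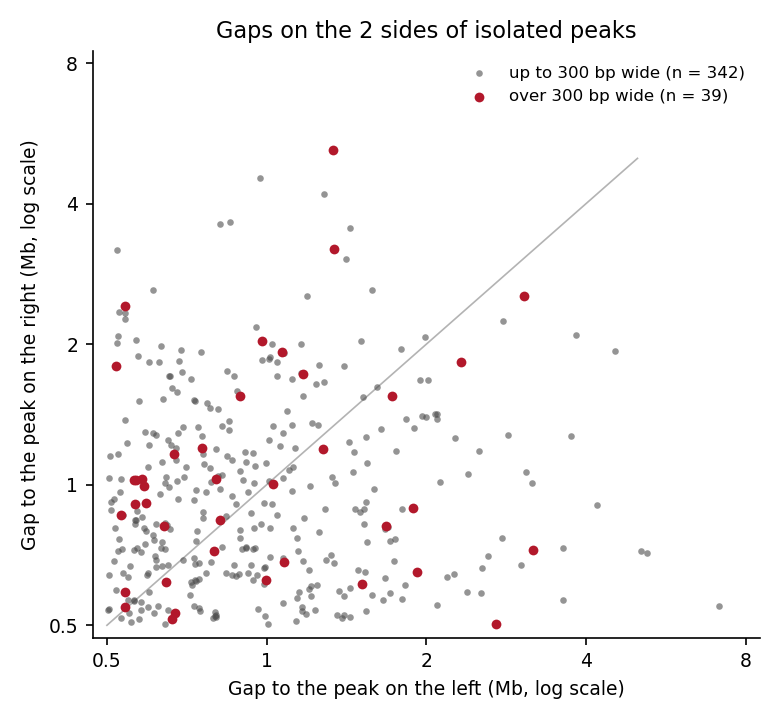
Gap to the neighbouring peak on the left (horizontal axis, Mb, log scale) and on the right (vertical axis, Mb, log scale) for the 381 isolated peaks with a neighbour on each side; the line marks equal gaps. Peaks over 300 bp wide, in red, are spread among the narrower ones, and the point farthest to the right is the chromosome 7 peak with gaps of 7.12 Mb and 549 kb.

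Few peaks were spread over much sequence. The 639 gaps that touch an isolated peak added up to 706 Mb, which was 29.4% of the 2403 Mb between the first and last listed peaks of the autosomes. All gaps over 500 kb numbered 1349 and made up 58.6% of that span, and 710 of them touched no isolated peak because the peaks on either side had a closer neighbour on the opposite flank. A gap of the list is a stretch in which no interval was called, and binding below the calling threshold may occur in it. Whether reads could be placed throughout a gap was not examined here.

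The surroundings of isolated peaks were sparser than those of the others, with some exceptions. Within 1 Mb on either side they had a median of 2 other peaks (quartiles 1 and 3), against 11 (quartiles 6 and 17) for the other autosomal peaks. Within 5 Mb the medians were 24 (quartiles 17 and 32) and 44 (quartiles 30 and 66). The rule keeps other peaks more than 500 kb from each member. Lower counts are therefore likely by construction, and both contrasts are a description. The member with the most company was chr3:92005491-92005657, which had 84 other peaks within 5 Mb although its own gaps were 1.69 Mb and 813 kb. Next came chr11:65847470-65847617 with 70 and chr10:73544703-73544978 with 63 other peaks within 5 Mb. At the other end, 3 consecutive members on chromosome 1, at chr1:145114089-145114266, chr1:145835560-145835741 and chr1:146454135-146454369, had 3 other peaks each within that distance. The very isolated chr1:69732314-69732849 had 32. The 3 highest and the 3 lowest counts were named after their values were seen.

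The autosomes contributed isolated peaks unequally. Chromosome 3 had the highest share, with 36 of 436 peaks (8.26%, Wilson interval 6.02 to 11.2%), and chromosome 1 was level with it at 46 of 558 (8.24%, interval 6.24 to 10.8%). Together they held 82 members, 21.1% of all isolated peaks, while they held 10.7% of all autosomal peaks. Chromosomes 12 and 16 followed with 6.50% (23 peaks) and 5.84% (17 peaks). Chromosome 11 had the lowest share, 9 of 683 peaks (1.32%, interval 0.695 to 2.49%), and chromosomes 2, 17 and 4 came next with 2.76%, 2.76% and 2.80%. The intervals of neighbouring chromosomes in this order overlapped, and those at the ends of the order did not.

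The share ran opposite to the overall density of peaks, which the spacing rule makes likely by construction. Chromosomes 3 and 1 had 2.79 and 2.89 peaks per Mb of span, and chromosome 11 had 5.76. A pair of the smallest autosomes departed from this order in opposite directions. Chromosome 18, with 3.27 peaks per Mb, had 9 isolated peaks (3.23%, interval 1.71 to 6.02%), or 1.05 per 10 Mb. Chromosome 6, at almost the same density of 3.24 per Mb, had 27 (5.68%, interval 3.94 to 8.14%), or 1.84 per 10 Mb. Chromosome 19, with a density of 4.42 peaks per Mb, had 13 isolated peaks (5.12%, interval 3.02 to 8.56%), or 2.26 per 10 Mb, while chromosome 4 at 4.46 peaks per Mb had 1.25 per 10 Mb. The intervals of the chromosomes in each of these pairs overlapped.

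**Figure D2:**
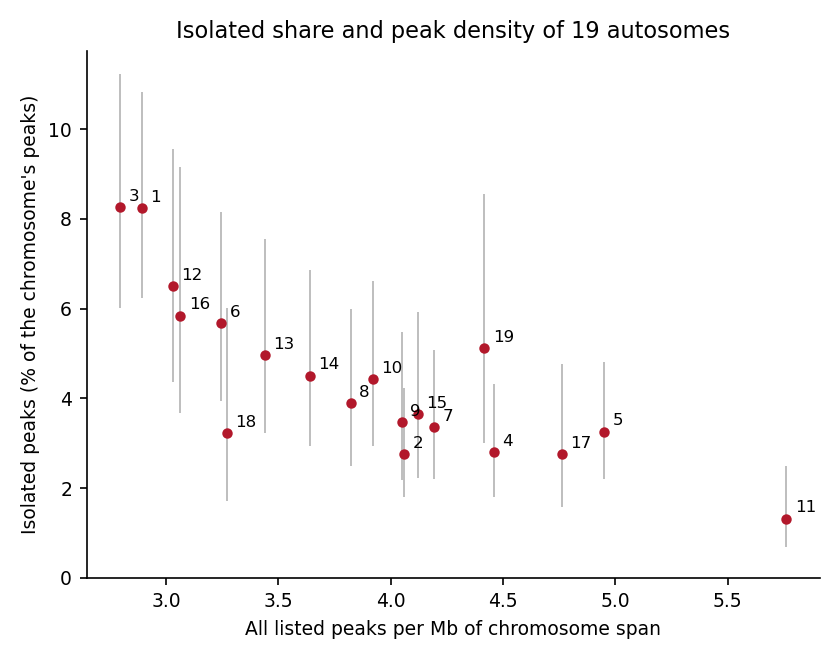
Isolated peaks as a percentage of all peaks of an autosome (vertical axis, with 95% Wilson intervals) against listed peaks per Mb of the span from first to last peak (horizontal axis); each point is an autosome, marked by its number. Chromosomes 1 and 3 lie at the upper left with 8.24% and 8.26%, and chromosome 11 at the lower right with 1.32%.

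Chromosome 1 also had the largest part of its span next to isolated peaks of any autosome. Gaps touching a member made up 86.4 Mb or 44.8% of chromosome 1, 39.1% of chromosome 12 and 37.7% of chromosome 3, compared with 14.3% of chromosome 11 and 18.8% of chromosome 18. Chromosome 5 joined a high density of 4.95 peaks per Mb to a sizeable empty part, with 24 members whose gaps took up 32.9% of its span. None of its 24 members lay in the distal 20% of the chromosome 5 span, which held 340 of the chromosome's 737 peaks. Where peaks are that dense, the spacing rule makes members unlikely by construction. On chromosome 7 there were 21 members among 626 peaks (3.35%).

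Along the autosomes, isolated peaks were spread more evenly than the others. Mouse autosomes carry their centromere at one end, at the low coordinates, so the order of positions runs from the centromeric to the distal end. The span of each autosome, from its first to its last listed peak, was divided into 5 equal segments. From the first to the last these held 21.6%, 23.1%, 19.8%, 18.3% and 17.2% of the 389 isolated peaks. The other autosomal peaks gave 18.1%, 16.2%, 18.4%, 19.9% and 27.4%. The distal segment thus held the largest part of the other peaks and the smallest part of the isolated ones (interval 13.8 to 21.3% against 26.5 to 28.4%), and the second segment held the largest part of the isolated peaks (interval 19.2 to 27.6% against 15.4 to 16.9%). Spacing and local density are linked through the rule, so these shares are a description.

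**Figure D3:**
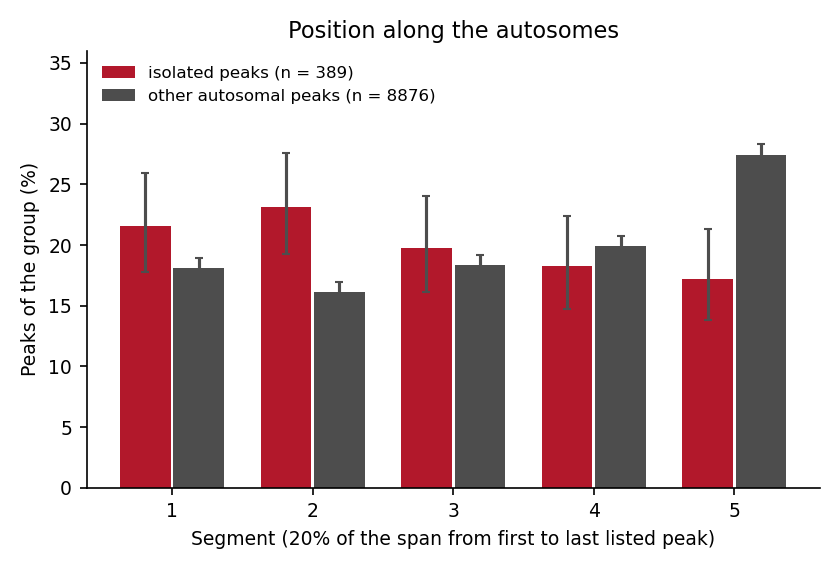
Percentage of isolated peaks (red) and of other autosomal peaks (grey) in each of 5 equal segments of the span of their chromosome, from the low to the high coordinates, with 95% Wilson intervals as error bars. The grey bars are highest in the segment at the distal end, 27.4%, where the red bar is lowest, 17.2%.

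Some isolated peaks followed each other directly and others did not. Of the 389 members, 212 (54.5%) had another member as a direct neighbour on at least one side, 50 of them (12.9% of all members) on both sides, and 177 (45.5%) had none. Neighbouring members share the gap between them, so the rule itself links them, and these counts are a description of the selection and not evidence of grouping. Of the 639 gaps touching a member, 131 joined 2 members. Counted as uninterrupted runs, the members formed 258, of which 177 were single peaks. There were 54 pairs and 27 runs of 3 or more consecutive members, the latter on 13 autosomes and with 104 members (26.7%). The longest were 2 runs of 6 members, followed by 5 runs of 5.

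The first of these lay on chromosome 1 between 46751980 and 56068981, where 6 peaks were spread over 9.32 Mb. It opened with a 403 bp peak at chr1:46751980-46752382, followed by 5.22 Mb without a peak. Then came 4 narrow peaks of 197, 153, 170 and 142 bp, at intervals of 716, 580 and 540 kb, of which the last was chr1:53806868-53807009. After a further 2.26 Mb the run closed with a 294 bp peak at chr1:56068688-56068981. Chromosome 1 held a further long run from 145114089 to 151930648, with 5 peaks of 178, 182, 235, 141 and 171 bp over 6.82 Mb. None of these 5 was wider than 300 bp, and the gap before the last of them measured 4.20 Mb.

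The other run of 6 lay on chromosome 7 from 142136457 to 146101662. It was more compact, 3.97 Mb long, and its peaks measured 284, 307, 160, 279, 298 and 337 bp, a median of 291 bp, against 183.5 bp in the run of 6 on chromosome 1. Its first 5 gaps were 540, 548, 633 and 732 kb and 1.51 Mb. The run also had much company nearby, with 34 to 39 other peaks within 5 Mb of each member. Among the runs of 5, those on chromosome 19 (19282646 to 23542585), chromosome 15 (14354671 to 18178311) and chromosome 5 (56883712 to 60560568) had median widths of 193, 201 and 195 bp and no peak over 300 bp. The remaining run of 5, on chromosome 1 from 175280657 to 178885003, had wider peaks, with a median of 263 bp and a widest peak of 302 bp. Wide medians were thus found in more than the chromosome 7 run.

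The typical isolated peak was about as wide as the typical peak of the list. Isolated peaks had a median width of 194 bp (95% order-statistic interval 185 to 206 bp) and other autosomal peaks 195 bp (interval 194 to 197 bp). The difference of the medians, isolated minus other, was -1 bp (interval -10 to 11 bp, from the interval of the isolated median). The quartiles were 160 and 249 bp for isolated peaks and 161 and 251 bp for the others. Mean widths were 215.5 ± 73.9 bp (SD, n = 389 peaks) and 220.9 ± 87.0 bp (SD, n = 8876 peaks). The width of a listed interval reflects what was called and does not measure how far binding extends.

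The share of the narrowest peaks differed between isolated and other peaks by less than the counting error. The smallest width of the list, 141 bp, was found for 25 members (6.43%, interval 4.39 to 9.31%) and for 632 other autosomal peaks (7.12%, interval 6.60 to 7.67%). The difference was -0.69 percentage points (95% Newcombe interval -2.80 to 2.24). The 25 members of minimum width had a median nearest distance of 684 kb, close to the 683 kb of all members, and lay on 11 autosomes. They made up 3.81% of the 657 autosomal peaks of that width.

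Wide peaks made up a smaller share of the isolated peaks than of the others. A width over 300 bp, the upper end of the sheared fragment size in the labels, was found for 39 isolated peaks (10.03%, interval 7.42 to 13.4%) and for 1243 other autosomal peaks (14.0%, interval 13.3 to 14.7%). The difference was -3.98 percentage points (Newcombe interval -6.69 to -0.52). The interval treats peaks as independent, and the difference was not tested further because peaks of 1 list are not replicates. The upper bound was above 0 when chromosome 4, 5, 10 or 13 was left out (0.055, 0.077, 0.25 and 0.14 points). Above 500 bp the shares were 1.29% (5 peaks, interval 0.550 to 2.97%) and 1.41% (125 peaks, interval 1.18 to 1.68%). The widest isolated peak measured 599 bp and the widest other peak 1407 bp.

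The lower share of wide peaks did not begin at 500 kb. By distance to the nearest midpoint, peaks over 300 bp made up 14.6% up to 1 kb, 18.0% from 1 to 10 kb, 14.2% from 10 to 50 kb, 12.2% from 50 to 100 kb, 12.8% from 100 to 250 kb and 11.3% from 250 to 500 kb. Among members the share was 9.62% up to 1 Mb (30 of 312 peaks, interval 6.82 to 13.4%) and 11.7% beyond 1 Mb (9 of 77, interval 6.27 to 20.7%). Set against the 804 peaks with a neighbour at 250 to 500 kb, the isolated peaks differed by -1.29 percentage points (Newcombe interval -4.82 to 2.64). Median widths over the same classes were 203, 204, 197, 192, 189 and 190 bp, then 193 bp (interval 184 to 207 bp) and 201 bp (interval 185 to 219 bp) for the members. The medians were lowest between 100 and 500 kb and those of the isolated peaks were not lower still.

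**Figure D4:**
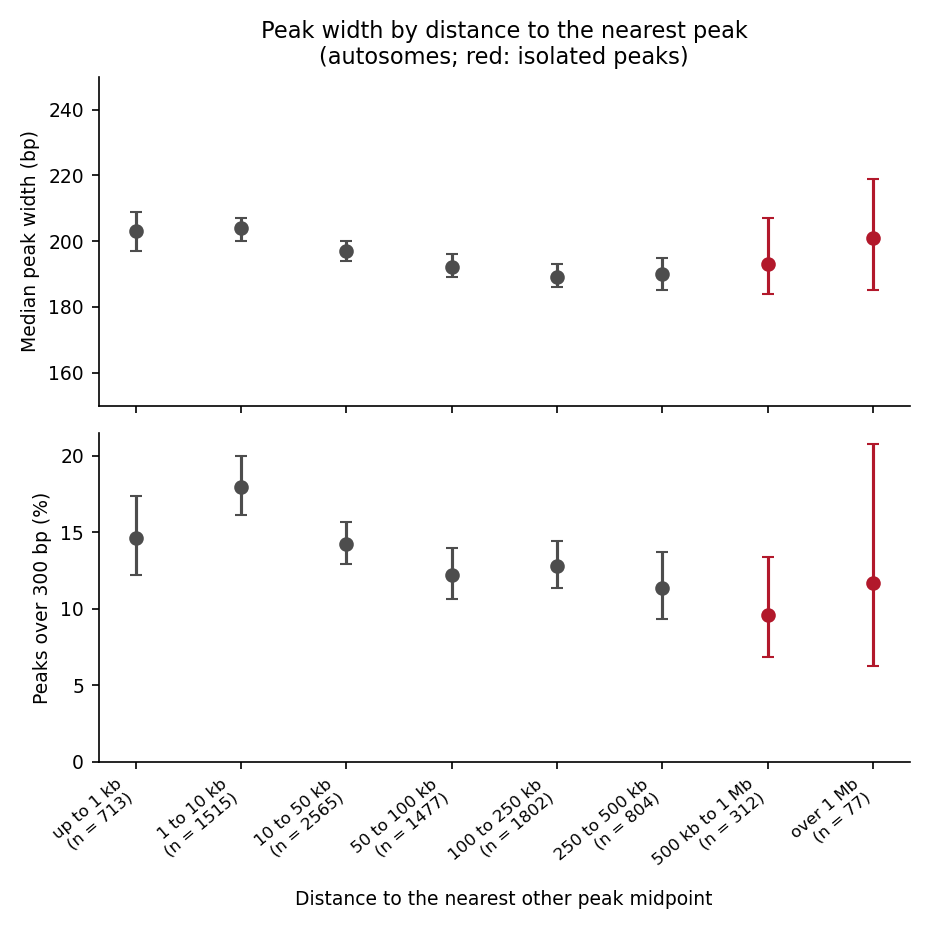
Median peak width in bp (upper panel, 95% order-statistic intervals, axis from 150 bp) and percentage of peaks over 300 bp (lower panel, 95% Wilson intervals) by distance to the nearest other peak midpoint for all autosomal peaks; the isolated peaks are the 2 classes in red. The share of wide peaks is highest at 1 to 10 kb, 18.0%, and the intervals of the red points overlap that of the class at 250 to 500 kb.

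Among the isolated peaks themselves, wide and narrower peaks stood at similar distances. The 39 wide members had a median nearest distance of 669 kb (quartiles 565 and 934 kb) and the 350 others 684 kb (quartiles 587 and 899 kb). Members with no member as a neighbour had a median width of 199 bp (177 peaks, interval 183 to 216 bp), and those beside another member 193.5 bp (212 peaks, interval 184 to 212 bp). Wide members made up 11.3% of the former (20 peaks, interval 7.43 to 16.8%) and 8.96% of the latter (19 peaks, interval 5.81 to 13.6%). The intervals overlapped for both measures.

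The widest isolated peak was chr1:101238056-101238654, 599 bp, with gaps of 540 kb and 2.42 Mb. On chromosome 12, chr12:26741236-26741790 measured 555 bp with gaps of 581 kb and 1.03 Mb. The third was the 536 bp peak chr1:69732314-69732849 described above. The fourth, chr7:66570109-66570637, was 529 bp wide, with 1.72 Mb to the left and 1.55 Mb to the right. The fifth, chr15:19865002-19865514, measured 513 bp and had gaps of 978 kb and 2.04 Mb. The 5 isolated peaks above 500 bp thus lay on 4 autosomes, at nearest distances from 540 kb to 2.53 Mb.

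The remaining peaks of the 10 widest ranged from 410 to 486 bp. They were chr17:63882305-63882790 (486 bp), chr6:75130386-75130838 (453 bp), chr6:60879736-60880166 (431 bp), chr6:20904371-20904786 (416 bp) and chr3:99045255-99045664 (410 bp). Chromosome 6 held 3 of the 5, at nearest distances of 756 kb, 519 kb and 1.07 Mb. Widths over 300 bp were found for 4 of its 27 isolated peaks (14.8%), close to the 14.3% of its other peaks. The chromosome 17 peak was the only one of 12 isolated peaks of that chromosome above 300 bp, and their median of 157 bp (interval 142 to 223 bp) was the lowest of any autosome.

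Isolated peaks of chromosome 7 were the widest of any autosome by their median. The 21 members had a median width of 279 bp (interval 204 to 309 bp), against 200 bp (interval 191 to 207 bp) for the 605 other peaks of chromosome 7 and 191 bp (interval 184 to 203 bp) for the 368 isolated peaks of the other autosomes. Widths over 300 bp were found for 7 of the 21 (33.3%, interval 17.2 to 54.6%), 93 of the 605 (15.4%, interval 12.7 to 18.5%) and 32 of the 368 (8.70%, interval 6.23 to 12.0%). No isolated peak of chromosome 7 had the minimum width (interval 0 to 15.5%), against 44 of its 605 other peaks (7.27%), a share inside that interval. The 6 peaks of its long run had a median of 291 bp, and the 15 outside it a median of 238 bp (interval 200 to 318 bp), of which 5 were over 300 bp. The chromosome was singled out after its values were seen, as the extreme of 19, and its intervals of median and share overlap those of the other chromosome 7 peaks.

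The 7 wide isolated peaks of chromosome 7 lay between 49752928 and 146101662, some of them near each other. Besides the 529 bp peak named above, chr7:64846119-64846461 (343 bp) and chr7:70086091-70086472 (382 bp) lay in the same part of the chromosome. The peak chr7:49752928-49753245 measured 318 bp and had 55 other peaks within 5 Mb, whereas the 343 bp peak had 8. Further along were chr7:118990038-118990346 (309 bp) and the run members chr7:142676863-142677169 (307 bp) and chr7:146101326-146101662 (337 bp). Their nearest distances ran from 540 kb to 1.55 Mb.

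Across the autosomes the isolated median was below that of the other peaks on 10 and above it on 9. Apart from the chromosome 7 and 17 values, the largest differences, isolated minus other, were 39 bp on chromosome 18 (9 members), 36 bp on chromosome 12 (23 members) and -25 bp on chromosome 8 (19 members). The share over 300 bp was lower among isolated peaks on 13 autosomes and higher on 6. Chromosomes 10, 11, 13 and 19 had no isolated peak over 300 bp among 22, 9, 20 and 13 members. Of their other peaks, 13.7%, 14.5%, 12.8% and 12.0% were that wide, and whether the absence of wide members departs from those shares was not tested. With 9 to 46 members per autosome, a single wide peak moved the share of a chromosome by several percentage points.

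**Figure D5:**
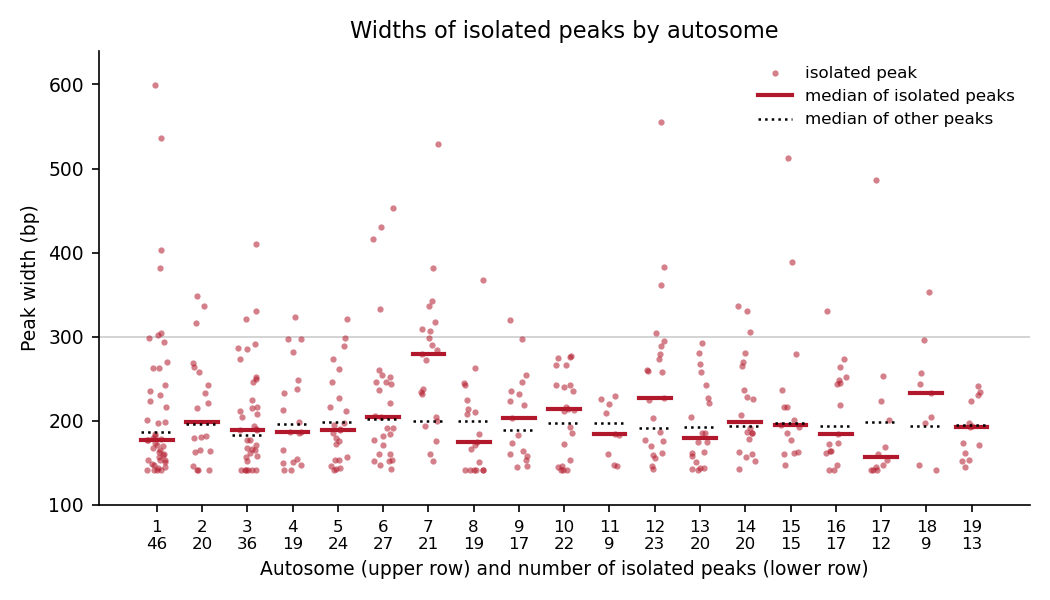
Width in bp of each of the 389 isolated peaks (points) by autosome, with the median of the isolated peaks (solid line) and of the other peaks of the same autosome (dotted line); the grey line marks 300 bp and the lower row of numbers gives the isolated peaks per autosome. The solid line is highest on chromosome 7, at 279 bp, and lowest on chromosome 17, at 157 bp.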

How the data were processed

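The authors deposited 1 peak list with 3 columns, chromosome, 0-based start and end, for 2 Flag-Sp5 and 2 input libraries. The build, mm9, and the programs Bowtie, Picard, MACS2 and HOMER come from the submitters' processing notes. Not given in the sources used here are their versions and order, the threshold, any filters and whether or how libraries were pooled. The deposited values are coordinates, with no count, signal or score, so a stricter peak threshold and any test between libraries could not be applied.

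Distances were measured between midpoints, and no listed intervals overlapped. Wilson and Newcombe intervals and exact order-statistic intervals of medians are at 95%. They treat peaks as independent. Differences between groups of peaks are given without p-values. Named were the 10 most isolated and the 10 widest members, 3 peaks on each side of the threshold and 5 runs, ranked by number of peaks and then by span. The 2 further runs tied at 5 peaks were added so that all ties are shown. Members, lists and rules were chosen with earlier results of these data known. The code was checked on simulated lists. Python 3.11.15, pandas 2.3.3, NumPy 2.4.6, SciPy 1.17.1 and matplotlib 3.10.9 were used.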

Additional observations from a re-analysis of the deposited data

How the results depend on the processing

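The number and share of isolated peaks follow the threshold by construction: 1193 peaks (12.9%) at 250 kb and 77 peaks (0.831%) at 1 Mb. Beyond 1 Mb the share at minimum width differed from the others by -4.53 percentage points, on 2 peaks of that width. With only peaks wider than the list median kept, 584 were isolated (12.7%), with a median width of 247 bp, and none could have the minimum width, so that difference has no value there. Edge-to-edge gaps selected 389 peaks. Merging peaks less than 500 bp apart before spacing was measured gave 397, and leaving out the peaks at both ends of each chromosome's list gave 381. With each autosome left out in turn, the number lay between 343 and 380, the share between 3.94 and 4.43%, the median width between 191 and 197 bp, the median difference between -4 and 1 bp, the minimum-width difference between -1.84 and -0.24 points and the difference in peaks over 300 bp between -5.21 and -3.39 points. That last difference was negative in all 25 alternatives, and its interval also reached above 0 at 1 Mb (-7.63 to 6.92 points). The alternatives largely reuse the same peaks, so they are not 25 separate checks. No paired analysis was possible because 1 set of coordinates stands for all 4 libraries, so no replicate could be left out either. The depth of the libraries is unknown.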

Other observations

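Chromosome X was outside the rule. By the same distance 46 of its 163 peaks (28.2%) would have been isolated. Through the spacing rule this share depends on the density of listed peaks, which was not computed for chromosome X.

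A further 1928 autosomal peaks bordered a gap of over 500 kb on one side and had a closer neighbour on the other. Their median width was 190 bp (95% order-statistic interval 187 to 193 bp), and 216 of them (11.2%, 95% Wilson interval 9.87 to 12.7%) were wider than 300 bp, against 10.03% of the isolated peaks. The smallest width, 141 bp, was shared by 143 of them (7.42%, interval 6.33 to 8.67%).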
